A study of Homo sapiens with 4 samples.

Results

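The BCL2 family decides whether the mitochondrial outer membrane stays intact, and 10 of its genes are described here in olaparib-resistant prostate cancer cells. Its guardians, BCL2, BCL-xL (BCL2L1) and MCL1, hold back the effectors BAX and BAK1. Once freed, the effectors form pores that release cytochrome c and start the caspase cascade. The BH3-only proteins sense damage or stress and neutralize the guardians or activate the effectors directly: PUMA (BBC3), NOXA (PMAIP1), BIM (BCL2L11), BID and BAD. BBC3, PMAIP1 and BAX are known to be induced by DNA damage. Olaparib, an inhibitor of the DNA repair enzymes PARP1 and PARP2, damages DNA in dividing cells. The 10 genes were taken by symbol from the 22637 genes of the count table, and all 10 were present.

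RNA was sequenced from 4 human prostate adenocarcinoma cell lines, with 1 library per line. LNCaP responds to androgen and is castration sensitive. C4-2B descends from LNCaP and is castration resistant. LN-OlapR was derived from LNCaP, and 2B-OlapR from C4-2B, by long exposure to rising doses of olaparib. The study's methods state that the resistant lines were then maintained in medium with olaparib. The part of this exposure in differences between a resistant line and its parent was not tested. For RNA, all 4 lines were labelled untreated and were plated without selection agent for 48 hours according to the submitters' design text, whereas the study's methods give a longer time. The comparisons that follow from the design are LN-OlapR against LNCaP (the LN pair), 2B-OlapR against C4-2B (the 2B pair), and C4-2B against LNCaP (the parental lines), which uses the same LNCaP and C4-2B libraries as the pairs. How far each resistant line is a clone or a mixed population was not given in the sources used here.

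Libraries held between 19950537 and 26394267 counts. Of the prostate luminal markers, FOLH1 was at 333.9 to 734.8 normalized CPM (counts scaled to a common library size), HOXB13 at 381.5 to 507.3, KRT8 at 259.8 to 343.5 and KRT18 at 374.6 to 422.1. KLK2 was at 126.4 to 747.6 CPM and TMPRSS2 at 130.4 to 485.3. KLK3, the androgen-driven gene for PSA, was at 53.1 CPM in LNCaP and between 1870 and 2685 CPM in the other lines. The basal marker KRT14 was near 0, at no more than 0.557 CPM in any library. Markers of other cell types were detected at levels like those of the scarcer members, and several differed within the pairs. The leukocyte marker CD68 was at 0.409 CPM in LNCaP and 2.17 to 5.14 CPM in the other lines, with log2 ratios of 3.59 in the LN pair (2.72 to 4.47) and -0.94 in the 2B pair (-1.46 to -0.43). COL1A1, a fibroblast marker, was lower in both resistant lines, with ratios of -0.88 (-1.13 to -0.63) and -1.17 (-1.45 to -0.89), while COL3A1 was at no more than 1.08 CPM. VWF, an endothelial marker, was also lower in both, with ratios of -0.73 (-1.08 to -0.39) and -2.21 (-2.64 to -1.79). Of the neuroendocrine markers, ENO2 had -1.07 in the LN pair (-1.34 to -0.80) and 1.08 in the 2B pair (0.73 to 1.43), and SYP, at 2.44 to 3.13 CPM, did not differ beyond counting error in either. The part of other cell types in the members' values was not tested. KRT5, TP63, PTPRC, CD3E, PECAM1, CHGA, COL1A2 and DCN were not found by symbol in the count table, whose genes each summed to at least 10 over the libraries. Because each line has 1 library, no difference here could be set against replicates, and no p-value is given. The 95% intervals cover counting error only, and a lower level in bulk RNA cannot tell fewer expressing cells from less RNA per cell. Transcripts of 1 gene were counted together, so BCL-xL and BCL-xS, or the long and short forms of MCL1, are not separated.

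For 5 of the 10 genes the resistant lines differed from their parents in opposite directions beyond counting error. The share of all genes that did so was not computed, so this count is not read as a trait of the family. In 2B-OlapR, BAX and BBC3 were at least 2-fold lower than in C4-2B, and PMAIP1 and BCL2 were at least 1.5-fold lower. In LN-OlapR, BBC3 was 1.59-fold higher than in LNCaP, BAX and BCL2 were higher by less, and MCL1 and PMAIP1 were lower. BAD was higher in both resistant lines, while BCL2L11 and BAK1 differed by no more than the counting error in either.

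**Figure D1:**
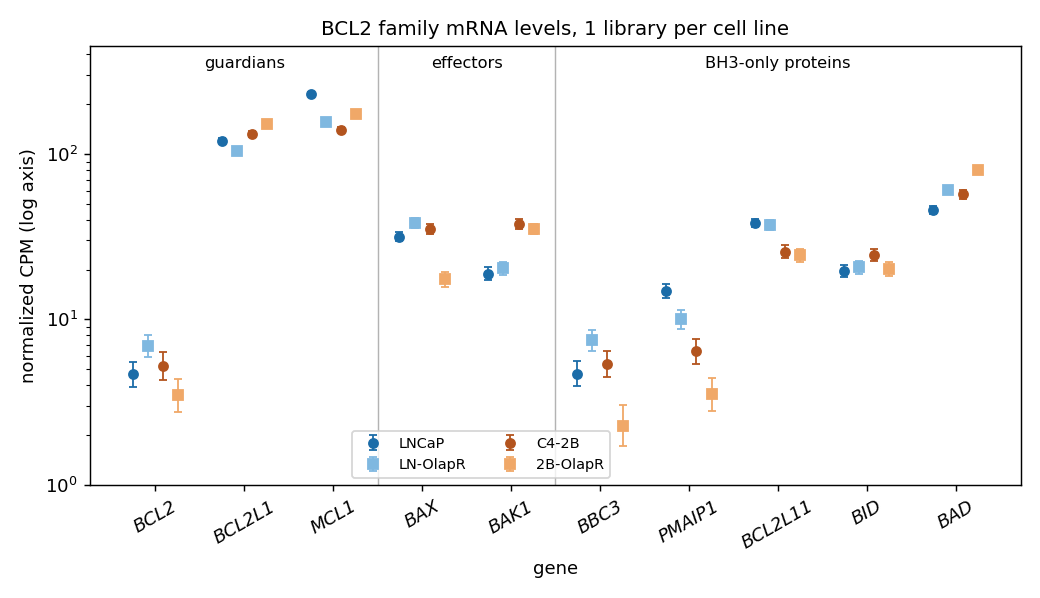
Normalized CPM (log axis) of the 10 genes in the 4 libraries, grouped by role, with circles for parental lines, squares for resistant lines and bars for Wilson 95% intervals of the count. BAX, BBC3, PMAIP1 and BCL2 have their lowest point in 2B-OlapR, and PMAIP1 has its highest in LNCaP.

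The effectors come first. BAX (ENSG00000087088.21, chr19:48954815-48961798, plus strand, GRCh38), the pore-forming protein that moves from the cytosol to mitochondria, was at 31.7 normalized CPM in LNCaP against 38.3 in LN-OlapR, and 35.2 in C4-2B against 17.5 in 2B-OlapR, from 852, 893, 720 and 362 counts. The first 3 lines lay close together and 2B-OlapR stood apart below them. In the 2B pair the log2 ratio was -1.01 (95% interval -1.19 to -0.83), a level 2.01-fold lower, and only 5.50% of the genes analysed had a lower ratio. For the LN pair it was 0.27 (0.14 to 0.41). C4-2B and LN-OlapR did not differ in BAX beyond counting error, and LNCaP was just below C4-2B, with a log2 ratio of 0.15 between the parental lines (0.0079 to 0.29).

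BAK1 (ENSG00000030110.14, chr6:33572547-33580293, minus strand), the effector that resides in the mitochondrial membrane, was at 18.9 normalized CPM in LNCaP against 20.4 in LN-OlapR, and 37.8 in C4-2B against 35.3 in 2B-OlapR. Its levels separated by lineage and not by resistance. The log2 ratio was 0.11 in the LN pair (-0.07 to 0.29) and -0.10 in the 2B pair (-0.24 to 0.05), both including 0, whereas C4-2B was above LNCaP by 0.999 on the log2 scale (0.84 to 1.16). The table also holds BAK1P1, a BAK1 pseudogene, with only 12 to 23 counts per library.

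A BH3-only gene on the chromosome of BAX was likewise lowest in 2B-OlapR, and was highest in LN-OlapR. BBC3 (ENSG00000105327.18, chr19:47220822-47232766, minus strand), whose product PUMA binds every guardian, was at 4.69 normalized CPM in LNCaP against 7.46 in LN-OlapR, and 5.38 in C4-2B against 2.27 in 2B-OlapR. These levels rest on few reads, with 126, 174, 110 and 47 counts. LNCaP and C4-2B, between the extremes, did not differ beyond counting error. The log2 ratio was 0.67 in the LN pair (0.34 to 0.999) and -1.24 in the 2B pair (-1.73 to -0.75), a level 2.36-fold lower in 2B-OlapR.

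The promoters of BAX and BBC3 are shown because both genes were at least 2-fold lower in 2B-OlapR. Each is the RefSeq window of 250 bases before and 50 after the start on GRCh38.p14, written 5′ to 3′. Capitals mark CACGTG, the E-box palindrome, and GGGCGG, the GC box, on either strand (CCGCCC on the minus strand).
BAX promoter, chr19:48954625-48954924, plus strand: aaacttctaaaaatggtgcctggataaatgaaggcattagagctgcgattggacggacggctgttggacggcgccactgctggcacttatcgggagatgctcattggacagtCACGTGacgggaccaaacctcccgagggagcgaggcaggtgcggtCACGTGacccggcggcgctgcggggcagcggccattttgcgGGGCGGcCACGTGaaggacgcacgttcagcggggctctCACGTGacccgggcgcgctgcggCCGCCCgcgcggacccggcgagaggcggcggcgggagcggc
BBC3 promoter, chr19:47232618-47232917, minus strand: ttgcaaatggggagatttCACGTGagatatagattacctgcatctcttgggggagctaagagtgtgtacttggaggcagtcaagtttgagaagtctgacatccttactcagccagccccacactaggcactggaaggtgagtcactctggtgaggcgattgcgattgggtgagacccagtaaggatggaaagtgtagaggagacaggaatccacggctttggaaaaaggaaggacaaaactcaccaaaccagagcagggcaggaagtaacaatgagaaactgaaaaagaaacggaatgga

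The BAX window holds 4 matches to CACGTG and the BBC3 window 1. Among all 35116 RefSeq promoter windows of 300 bases, 7.26% hold at least 1. GGGCGG was found at 2 places in the BAX window and at 0 in that of BBC3, against 45.0% of all windows with a match. The shares of windows with more than 1 match were not computed. No marked match overlaps another. These are matches of letters, and no binding was measured.

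PMAIP1 spanned the widest range of the family, 4.21-fold over the 4 libraries. PMAIP1 (ENSG00000141682.12, chr18:59899948-59904306, plus strand), whose product NOXA binds mainly MCL1, was at 14.8 normalized CPM in LNCaP against 9.99 in LN-OlapR, and 6.40 in C4-2B against 3.52 in 2B-OlapR. Every step down that order exceeded the counting error. Each resistant line was below its parent, with log2 ratios of -0.57 in the LN pair (-0.80 to -0.34) and -0.86 in the 2B pair (-1.27 to -0.45). C4-2B was 2.31-fold below LNCaP, a log2 ratio of -1.21 (-1.49 to -0.93). Its promoter is shown as that of the member with the widest range, with capitals as above.
PMAIP1 promoter, chr18:59899746-59900045, plus strand: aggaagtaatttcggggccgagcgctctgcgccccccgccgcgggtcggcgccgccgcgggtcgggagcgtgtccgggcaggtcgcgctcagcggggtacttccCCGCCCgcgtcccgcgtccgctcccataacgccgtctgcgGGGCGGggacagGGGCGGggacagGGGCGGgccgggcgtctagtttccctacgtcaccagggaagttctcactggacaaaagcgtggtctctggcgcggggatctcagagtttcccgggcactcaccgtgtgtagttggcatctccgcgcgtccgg

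The PMAIP1 window holds 4 matches to GGGCGG and 0 to CACGTG. Of the 10 genes, 9 had at least 1 promoter in the RefSeq table, and 6 of these had exactly 1. Beyond BAX and BBC3, CACGTG occurred once in each of 2 windows of BID. GGGCGG had 0 to 4 matches per window of BID, 3 in BCL2L11 and 2 in BAK1. It had 1 match in each window of BAD, 0 or 1 in those of BCL2L1 and 0 in BCL2. The CCAAT box, present in 34.6% of all windows, had 2 matches in BAX and in BAK1 and 1 in BBC3, in BCL2L11 and in each of the 2 windows of BAD.

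The 10136 genes averaging 10 normalized CPM or more were ranked by likeness to PMAIP1. The 5 whose centred log2 levels lay nearest were DAB2IP, ZNF518A, VPS13C, NAALADL2 and HDAC4, at Euclidean distances of 0.10 to 0.20 on the log2 scale. DAB2IP, which encodes a Ras GTPase-activating protein, was at 40.7 normalized CPM in LNCaP against 26.4 in LN-OlapR, and 15.9 in C4-2B against 9.17 in 2B-OlapR. The likeness is over only 4 libraries.

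The other BH3-only genes differed little with resistance, apart from BAD. BCL2L11 (ENSG00000153094.24, chr2:111119378-111168447, plus strand), which encodes BIM, was at 38.2 normalized CPM in LNCaP against 37.2 in LN-OlapR, and 25.7 in C4-2B against 24.4 in 2B-OlapR. Neither resistant line differed from its parent beyond counting error, with log2 ratios of -0.04 (-0.17 to 0.09) and -0.07 (-0.25 to 0.10), and both LNCaP lines lay above both C4-2B lines. MIR4435-2HG, on the opposite strand, shares 727 exonic bases with BCL2L11. It had 19, 43, 191 and 302 counts in LNCaP, LN-OlapR, C4-2B and 2B-OlapR, against 1027, 867, 526 and 506 for BCL2L11. The strand setting of the counting was not given, and the part of MIR4435-2HG reads in the BCL2L11 values was not tested.

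BID (ENSG00000015475.19, chr22:17734138-17774770, minus strand), the link from death receptors to mitochondria through caspase-8, had the narrowest range of the family, 1.25-fold. It was at 19.6 normalized CPM in LNCaP against 20.6 in LN-OlapR, and 24.5 in C4-2B against 20.1 in 2B-OlapR. C4-2B was the highest and the other 3 lines did not differ beyond counting error between neighbours. The log2 ratio was 0.08 in the LN pair (-0.10 to 0.25; with scaling by total counts its sign turned) and -0.28 in the 2B pair (-0.47 to -0.10).

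BAD (ENSG00000002330.14, chr11:64269830-64284704, minus strand), which binds BCL2 and BCL-xL when survival signalling no longer phosphorylates it, was at 46.0 normalized CPM in LNCaP against 60.5 in LN-OlapR, and 56.9 in C4-2B against 79.5 in 2B-OlapR. Each resistant line was above its parent, by a log2 ratio of 0.40 in the LN pair (0.29 to 0.51) and 0.48 in the 2B pair (0.37 to 0.59). C4-2B and LN-OlapR did not differ beyond counting error. BAD shares 404 exonic bases with GPR137 on the opposite strand, which had log2 ratios of 0.34 (0.24 to 0.45) and 0.50 (0.39 to 0.61) in the same pairs. GPR137 had 1357, 1493, 1195 and 1713 counts in LNCaP, LN-OlapR, C4-2B and 2B-OlapR, against 1237, 1412, 1165 and 1647 for BAD. The libraries were stranded, but the strand setting of the counting was not given in the sources used here, so the part of GPR137 reads in the BAD values was not tested.

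Among the guardians, BCL2 differed in the opposite direction to BCL2L1 and MCL1 in both pairs. BCL2 (ENSG00000171791.14, chr18:63123346-63320128, minus strand), the founding member of the family, was at 4.65 normalized CPM in LNCaP against 6.90 in LN-OlapR, and 5.23 in C4-2B against 3.47 in 2B-OlapR, from 125, 161, 107 and 72 counts. The log2 ratio was 0.57 in the LN pair (0.23 to 0.91) and -0.59 in the 2B pair (-1.02 to -0.16), a level 1.501-fold lower. Only LN-OlapR stood apart from its nearest neighbour in the order, C4-2B.

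MCL1 (ENSG00000143384.14, chr1:150574551-150579738, minus strand), a short-lived guardian that holds BAK1 in check, was at 230.8 normalized CPM in LNCaP against 155.9 in LN-OlapR, and 140.4 in C4-2B against 174.2 in 2B-OlapR. LNCaP was the highest, and every step in the order exceeded the counting error. The log2 ratio was -0.57 in the LN pair (-0.63 to -0.51), 0.31 in the 2B pair (0.24 to 0.38) and -0.72 between the parental lines (-0.78 to -0.65). ADAMTSL4-AS1, an RNA of the same strand that shares 2 exonic bases with MCL1, had only 2 to 9 counts per library.

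BCL2L1 (ENSG00000171552.14, chr20:31664452-31723989, minus strand), whose main product BCL-xL restrains both effectors, was at 120.6 normalized CPM in LNCaP against 103.9 in LN-OlapR, and 132.0 in C4-2B against 152.2 in 2B-OlapR. Differences were small but beyond the counting error at each step of the order. The log2 ratio was -0.21 in the LN pair (-0.29 to -0.14) and 0.21 in the 2B pair (0.13 to 0.28). The antisense RNA ABALON shares 1424 exonic bases with BCL2L1 but had only 24 to 50 counts per library, against 2424 to 3242 for BCL2L1.

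**Figure D2:**
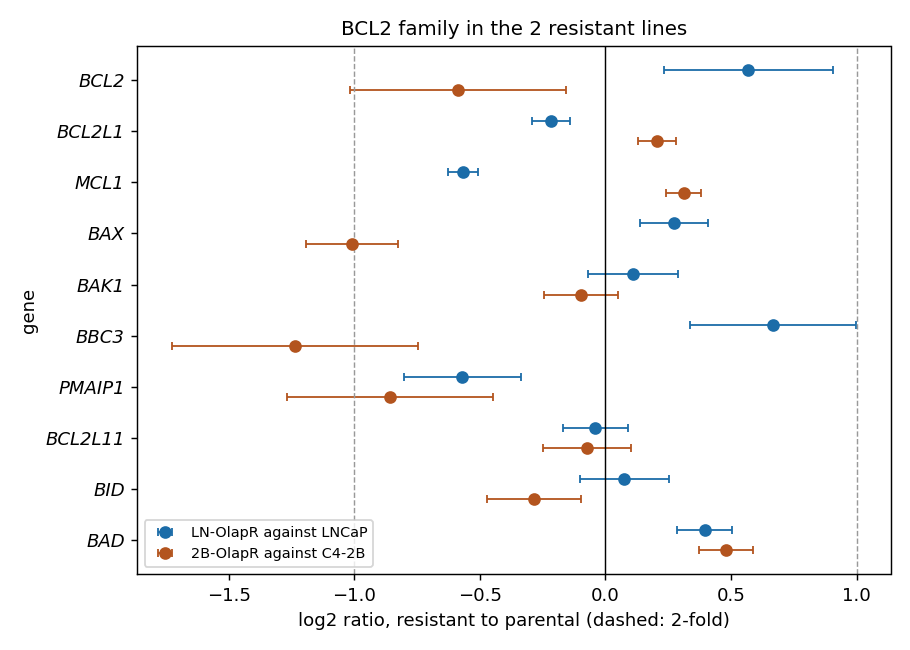
Log2 ratio of each resistant line to its parent for the 10 genes, with 95% counting intervals and dashed lines at 2-fold. BCL2, BAX and BBC3 lie right of 0 in the LN pair and left of 0 in the 2B pair, BCL2L1 and MCL1 lie the other way round, and BAD lies right of 0 in both.

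Of all genes, 15373 passed the filter in the LN pair (on average 1 normalized CPM or more), and all 10 members were among them. At 2-fold, 0 members were higher and 0 lower, against 4.64% and 4.83% of all genes analysed. At 1.5-fold, BBC3 alone was higher and 0 members were lower, against 10.6% and 10.8% of genes. BCL2, MCL1 and PMAIP1 lay just short of that limit, each at 1.48-fold. The median log2 ratio of the members was 0.09, against -0.00 over all genes.

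In the 2B pair 15527 genes passed the filter, again with all 10 members. At 2-fold, 0 members were higher and 2 lower (BAX and BBC3), against 4.42% and 5.65% of genes. At 1.5-fold, 0 were higher and 4 lower (BAX, BBC3, PMAIP1 and BCL2), against 10.7% and 13.5%. BAX and BCL2 lay close to the 2-fold and 1.5-fold limits, and with upper quartile scaling BAX fell short of 2-fold. The median was -0.19, against -0.00 over all genes.

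Between the parental lines 15580 genes passed the filter, with all 10 members. At 2-fold, 0 members were higher in C4-2B and 1, PMAIP1, was lower, against 8% and 7.18% of genes. BAK1, at 1.998-fold, lay just under the limit and passed it under 4 of the alternatives. At 1.5-fold, 1 member was higher (BAK1) and 2 were lower (MCL1 and PMAIP1), against 16.1% of genes in each direction.

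The pairs were next set against each other. Of the 10 members, 7 had opposite signs in the LN and 2B pairs and 3 (PMAIP1, BCL2L11 and BAD) the same sign. For 5 of the 7 both intervals excluded 0. Of all genes analysed, 7625 of 15373 were above 0 in the LN pair and 7761 of 15527 in the 2B pair. The share of all genes with opposite signs was not computed, so these counts are not read as a trait of the family. The ratio in the 2B pair minus that in the LN pair was -1.90 for BBC3 (-2.50 to -1.31), -1.28 for BAX (-1.51 to -1.05) and -1.15 for BCL2 (-1.70 to -0.61). It was 0.88 for MCL1 (0.79 to 0.97) and 0.42 for BCL2L1 (0.31 to 0.53). The quartiles over the autosomal genes were -0.27 and 0.26 in the LN pair and -0.32 and 0.28 in the 2B pair. BCL2L1, at -0.21 and 0.21, lay within them in both pairs. BAX in the LN pair (0.27) and MCL1 in the 2B pair (0.31) lay just above the upper quartile. For BAD the difference was 0.09 (-0.07 to 0.24) and for PMAIP1 -0.29 (-0.76 to 0.19), so for these no difference between the pairs was detectable at this depth.

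Levels of different genes were compared per kilobase of exon. MCL1, BCL2L1 and BAD took the first 3 ranks in every library, BBC3 was ninth and BCL2 last, with either choice of gene length. In LNCaP these levels were 52.8 normalized CPM per kilobase for MCL1, 36.4 for BCL2L1 and 26.9 for BAD, against 1.47 for BBC3 and 0.395 for BCL2. BCL2 thus made up between 0.343% and 0.868% of the summed guardian level.

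The order of MCL1 and BCL2L1 differed between lineages. MCL1 was 58.9% (95% counting interval 57.9 to 60.0) of the guardian level per kilobase in LNCaP, against 52.7% (51.5 to 54.0) in LN-OlapR. For C4-2B the MCL1 share was 44.4% (43.1 to 45.7), against 46.3% (45.1 to 47.5) for 2B-OlapR. MCL1 was thus above BCL2L1 in LNCaP and below it in both C4-2B lines. In LN-OlapR the order depended on the length used, with a log2 ratio of MCL1 to BCL2L1 of 0.19 by all exons and -0.0063 by the longest transcript.

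BAX was 58.9% (56.2 to 61.5) of the summed effector level per kilobase in LNCaP, 61.6% (58.9 to 64.2) in LN-OlapR, 44.3% (41.8 to 46.9) in C4-2B, but 29.7% (27.2 to 32.4) in 2B-OlapR. With the longest transcript as length the shares were 73.2%, 75.3%, 60.3% and 44.6%, so that BAX led BAK1 in C4-2B, but 2B-OlapR was the lowest and BAK1 led there under both. The shift of the log2 ratio of BAX to BAK1, which does not depend on length or scaling, was -0.91 in the 2B pair (-1.15 to -0.68) and 0.16 in the LN pair (-0.06 to 0.39).

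The summed effector level was below that of the summed guardians in each library. The log2 ratio per kilobase was -2.11 in LNCaP (-2.19 to -2.02) against -1.49 in LN-OlapR (-1.58 to -1.41), and -1.24 in C4-2B (-1.32 to -1.16) against -1.92 in 2B-OlapR (-2.01 to -1.83). The shift from parent to resistant line was 0.61 in the LN pair (0.50 to 0.73) and -0.68 in the 2B pair (-0.81 to -0.56). From LNCaP to C4-2B, the parental lines, it was larger than either, at 0.87 (0.75 to 0.99). The ratio of BAX to BCL2, in contrast, was 31.0-fold in LNCaP against 25.2-fold in LN-OlapR, and 30.6-fold in C4-2B against 22.9-fold in 2B-OlapR per kilobase. Its log2 shift was -0.30 in the LN pair (-0.66 to 0.07) and -0.42 in the 2B pair (-0.89 to 0.05), both including 0. The log2 ratio of summed BH3-only genes to summed guardians shifted by 0.62 in the LN pair (0.53 to 0.71). That shift was 0.02 in the 2B pair (-0.08 to 0.12) and 0.37 between the parental lines (0.27 to 0.47).

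BAD made up 59.6% of the BH3-only level per kilobase in LNCaP against 67.5% in LN-OlapR, and 70.5% in C4-2B against 81.6% in 2B-OlapR. PMAIP1 had 14.7%, 8.52%, 6.06% and 2.76%, and BBC3 had 3.26%, 4.47%, 3.58% and 1.25%. BAD thus had its largest share in 2B-OlapR, where PMAIP1 and BBC3 had their smallest share. The part of GPR137 reads in the BAD share was not tested.

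**Figure D3:**
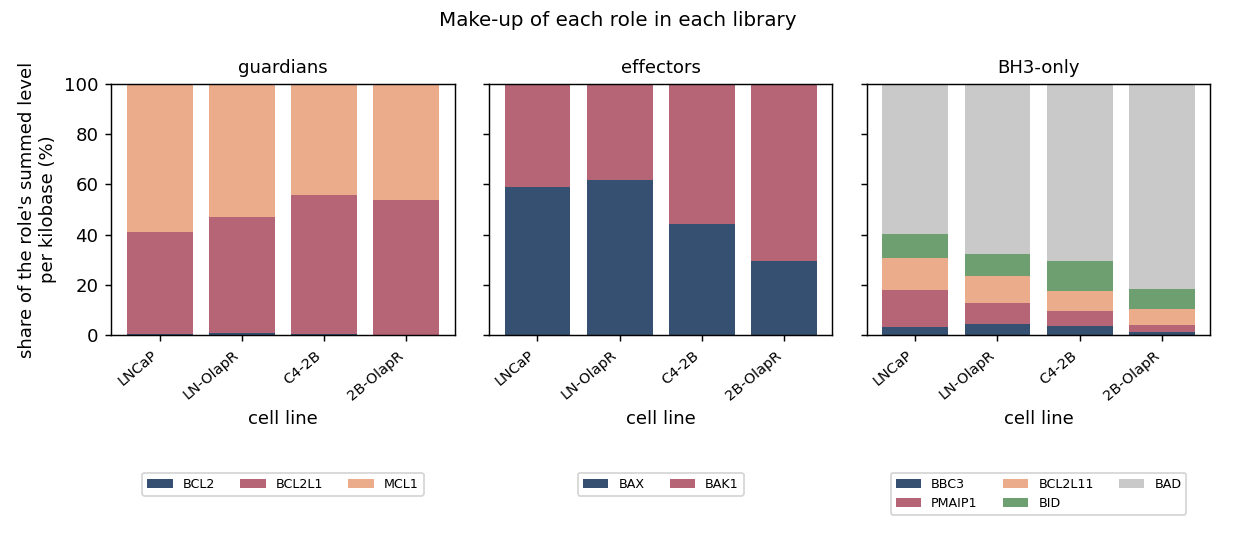
Share of each gene (%) in the summed level per kilobase of exon of the guardians, the effectors and the BH3-only proteins, in each of the 4 libraries. The BAX share is 29.7% in 2B-OlapR against 44.3% in C4-2B, and the BAD share is highest in 2B-OlapR at 81.6%.

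BCL2 and PMAIP1 both lie on chromosome 18, and BAX and BBC3 on chromosome 19, so their neighbours were read too. In the 2B pair the 219 genes analysed on chromosome 18 had a median log2 ratio of -0.40 (quartiles -0.68 and -0.17), and 181 of them (82.6%) were below 0, against a median of -0.00 and 50.03% below 0 over the autosomes. In the 3.42 Mb from PMAIP1 to BCL2, 8 of 8 analysed genes in between were below 0, with a median of -0.76. BCL2, at -0.59, was thus within the quartiles of its chromosome and PMAIP1, at -0.86, below them. The chromosome 18 median of the LN pair was -0.09, with BCL2 above and PMAIP1 below the quartiles. DNA copy number was not measured, and its part in these values was not tested.

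Chromosome 19 gave a different picture in the 2B pair. Its 1052 genes had a median log2 ratio of 0.14 (quartiles -0.24 and 0.36), and the 32 genes between BBC3 and BAX, over 1.74 Mb, had a median of 0.03 with 15 below and 17 above 0. BAX at -1.01 and BBC3 at -1.24 were both below the lower quartile.

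**Figure D4:**
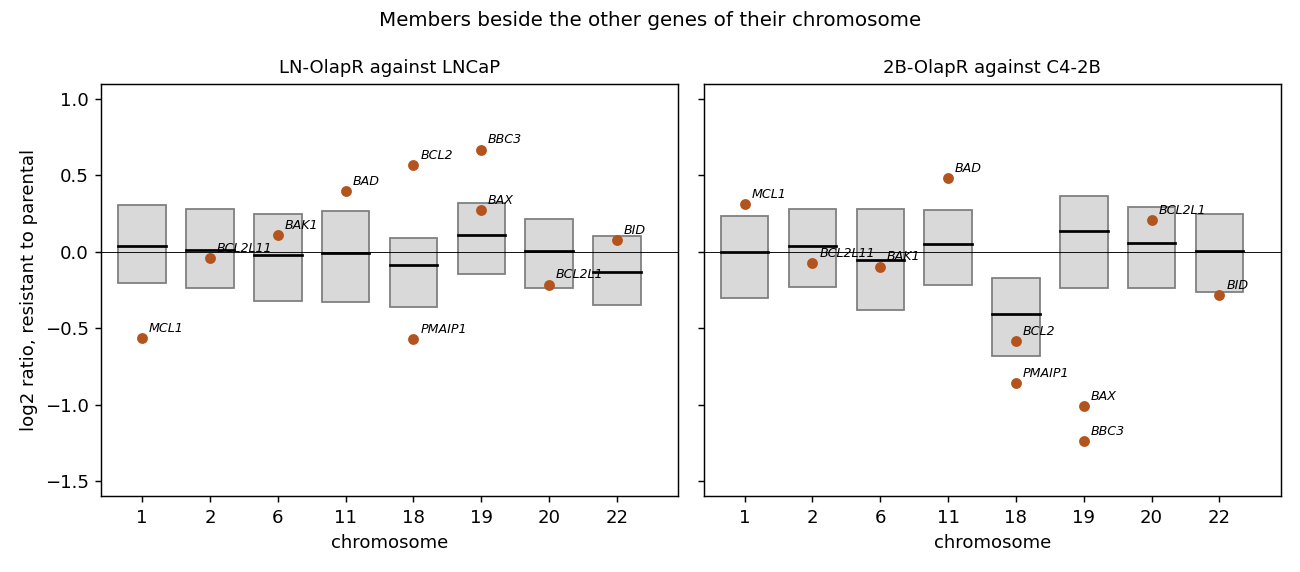
Log2 ratio of each of the 10 genes (points) beside the genes analysed on the same chromosome (box from lower to upper quartile, black line at the median), in the LN pair on the left and the 2B pair on the right. The chromosome 18 box lies wholly below 0 in the 2B pair, with BCL2 inside it, while BAX and BBC3 lie far below the chromosome 19 box.

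Other genes of the apoptosis pathway were described by list. Of 11 further BCL2 relatives, 8 were in the table and 6 or 7 passed the filter. In the LN pair 1 of 6 was above 0 and 5 below, against 7625 of 15373 genes above 0. BMF, a BH3-only gene tied to the cytoskeleton, was 15.9 normalized CPM in LNCaP and 4.59 in LN-OlapR, a log2 ratio of -1.79 (-2.10 to -1.49). The highest was BOK at 0.12. In the 2B pair 4 of 7 were above 0, against 7761 of 15527 genes. They ran from BCL2L13 at 0.25 down to BCL2L14 at -1.68 (-2.60 to -0.76), the latter at only 1.91 and 0.579 normalized CPM. Between the parental lines BOK, a BAX-like protein, was higher in C4-2B by 1.35 on the log2 scale, and BMF had -1.23. BCL2L14 was higher in C4-2B by 2.17 (1.23 to 3.12), from only 11 counts in LNCaP and 39 in C4-2B.

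The apoptosome and caspases act after the membrane is breached. APAF1, the scaffold on which cytochrome c activates caspase-9, was at 7.07 normalized CPM in LNCaP against 5.32 in LN-OlapR, and 8.16 in C4-2B against 3.33 in 2B-OlapR. Its log2 ratio in the 2B pair was -1.29 (-1.69 to -0.88), the only one of 13 past 2-fold. Of all genes analysed in that pair, 4.42% were at least 2-fold higher and 5.65% lower. The list median was 0.16 with 9 of 13 above 0, against 7761 of 15527 genes, and CASP10 was highest at 0.71 (0.18 to 1.24). In the LN pair 6 of 12 were above 0 and 6 below, with AIFM1 highest at 0.55. There 0 were past 2-fold, against 4.64% of all genes higher and 4.83% lower. Between the parental lines CASP10 was highest at 1.95 (1.12 to 2.78), from only 15 counts in LNCaP and 45 in C4-2B. The initiator CASP9 was lowest there at -0.89.

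In the inhibitor of apoptosis list, 6 of 7 genes passed the filter and 0 were past 1.5-fold in either pair. Of all genes analysed, 10.6% were at least 1.5-fold higher and 10.8% lower in the LN pair. In the 2B pair these shares were 10.7% and 13.5%. The list median was 0.15 in the LN pair, from NAIP at -0.08 to BIRC3 at 0.26. In the 2B pair it was 0.21, from BIRC6 at -0.32 to NAIP at 0.52. Between the parental lines the list ran from NAIP at -0.61 to BIRC3 at 0.36.

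The death receptor arm feeds into the family through BID. In the LN pair 8 of 8 genes had a ratio above 0, against 7625 of 15373 genes analysed. The list median was 0.33, and the range was from the adaptor FADD at 0.02 (-0.10 to 0.15) to the adaptor TRADD at 0.65. FADD and TNFRSF1A, at 0.03 (-0.07 to 0.13), did not differ beyond counting error. In the 2B pair 3 of 8 were above 0, against 7761 of 15527 genes, and the median was -0.04. The TRAIL receptors gave the extremes there, TNFRSF10A at 0.31 and TNFRSF10B at -0.41. FAS, the CD95 receptor, was 2.28-fold lower in C4-2B than in LNCaP, and TRADD was highest there at 0.61.

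Of 13 regulators of the members, 0 were past 2-fold in the LN or the 2B pair or between the parental lines. Of all genes analysed, 4.64% were at least 2-fold higher and 4.83% lower in the LN pair, and 4.42% and 5.65% in the 2B pair. Between the parental lines these shares were 8% and 7.18%. In the LN pair the stress factor DDIT3 (CHOP) was highest at 0.87 and ATF4 lowest at -0.33. In the 2B pair E2F1 was highest at 0.81 and FOXO1, a factor that activates BH3-only genes, lowest at -0.95. Between the parental lines DDIT3 was highest at 0.96 and FOXO3 lowest at -0.99.

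**Figure D5:**
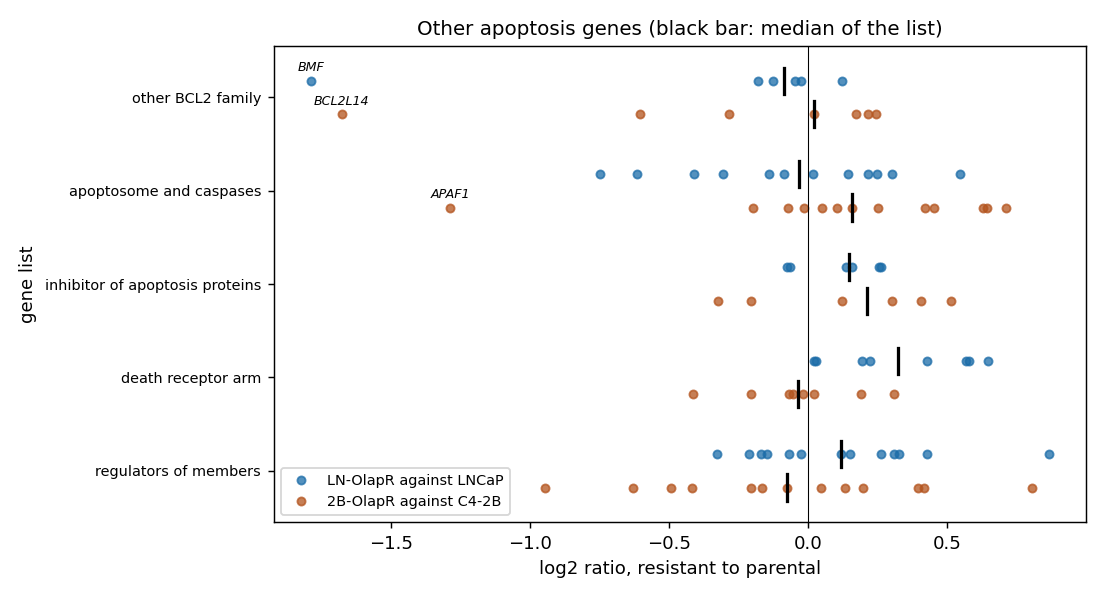
Log2 ratio of each gene analysed in 5 other apoptosis lists, in the LN pair (blue) and the 2B pair (orange), with a black bar at the list median. Genes past 2-fold are named: BMF in the LN pair, and BCL2L14 and APAF1 in the 2B pair, and the 8 death receptor genes lie above 0 in the LN pair, FADD and TNFRSF1A by less than the counting error.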

How the data were processed

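Total RNA was extracted with TRIzol and made into stranded mRNA libraries with a KAPA kit. The authors deposited 1 table of estimated counts per gene, not scaled between libraries. The submitters' processing notes name STAR, Partek and GRCh38 (hg38) without versions. The annotation was not given in the sources used here. Of the values, 45.7% were not whole, and each gene summed to at least 10 over the libraries. The design had assumed counts, so rounded values were used.

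Normalization factors were computed by TMM in edgeR 4.0.16 (R 4.3.3), and levels are normalized CPM with Wilson 95% intervals. Log2 ratios used a pseudocount of 0.5 counts and a normal interval from the counts. They were checked on simulated Poisson counts, the model that the interval assumes, so the check does not cover spread between cultures. Genes averaging 1 normalized CPM or more over a comparison were analysed. With 1 library per line, no test was made and genes were counted past 1.5-fold and 2-fold. Lengths and positions came from GENCODE 29 on GRCh38, which matched 94.5% of identifiers, and promoters from RefSeq. Further steps used Python 3.11.15 with numpy, pandas and SciPy. All 10 members were named, with, of each other list, the highest and lowest gene per comparison and any past 2-fold, the 5 genes most like the member with the widest range, and genes that overlap a member. Some genes that this rule or the marker lists would name are not reported here. Members and lists were chosen with earlier results of these data known. Alternatives were other scalings (total counts, upper quartile, size factors of DESeq2 1.42.0), a pseudocount of 2, no filter, a filter at 10, the values as deposited and the longest transcript as length. Counting intervals assume independent molecules.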

Additional observations from a re-analysis of the deposited data

Results flagged for a closer look

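For 5 members the resistant line differed from its parent in opposite directions in the LN and the 2B pair, with both counting intervals excluding 0. The log2 ratio in the 2B pair minus that in the LN pair was -1.15 for BCL2, 0.42 for BCL2L1, 0.88 for MCL1, -1.28 for BAX and -1.90 for BBC3. With 1 library per line this difference between the pairs was not tested against the spread between cultures. For BCL2L1 the ratios of both pairs lay within the quartiles of the autosomal genes. The share of all genes with such opposite differences was not computed, so their number is not read as a trait of the family.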

How the results depend on the processing

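No paired analysis by replicate number could be made, since each line has 1 library and the labels carry no replicate numbers, and no replicate could be left out. A joint fit of resistance over the 4 libraries, blocked by lineage, would leave 1 residual degree of freedom and was not made. Of 203 recomputed log2 ratios of members, 200 kept their sign and moved by less than the counting error. Scaling by total counts, which set the median of all genes in the LN pair at -0.09, moved BCL2L1 to -0.30 and MCL1 to -0.65 in the LN pair and turned BID there to -0.0083, a shift within its counting error. The largest shift of any member was 0.084. The count of members past 2-fold in the 2B pair was 1 with upper quartile factors, where BAX fell short, and 1 with the filter at 10, which removed BBC3. Between the parental lines it was 2 with total counts, DESeq2 size factors, upper quartile factors and the values as deposited, where BAK1 passed. With the longest transcript as length, the log2 ratio of effectors to guardians was -1.73 in LNCaP, -1.10 in LN-OlapR and -1.02 in C4-2B. BBC3, BCL2 and PMAIP1 in 2B-OlapR, with 47, 72 and 73 counts, have the widest intervals.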
